A study of Mus musculus with 18 samples.

Results

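Lepr, Leprot, Leprotl1, Stat3 and Socs3, the genes of the leptin receptor, its 2 endospanin-type partners and the STAT3 feedback loop, were followed in the liver of 18 ICR mice. They were taken by symbol, and these 5 rows stand among the 19057 gene rows of the expression table. Lepr was selected on its measured level, which differed strongly between Con, STZ and the 2 transplanted groups, and the other 4 were added as its locus partner, a relative of that partner and its signalling route. Which of the 18 mice weighed in that choice is not known, so all values and differences of these 5 genes are given as a description with no test. Tests are given for other genes of the pathway.

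Liver RNA was sequenced from 6 groups of 3 mice, all 10 weeks of age, and expression was given as RPKM, the reads on a gene scaled to its length and to the size of the library. Con mice had the normal diet and saline. STZ mice had streptozotocin, a drug that destroys the insulin-producing beta cells of the pancreas and serves as a chemical model of type 1 diabetes. A10-FMT mice had STZ and then, by mouth, the gut microbes of donor mice dosed with alginate oligosaccharide (AOS) at 10 mg/kg, and Con-FMT mice had STZ and the microbes of donors given water. The donor material was small intestinal content pooled within a donor group, so the 3 recipients of a group did not have separate donors. AOS mice were labelled as given AOS at 10 mg/kg with no STZ, and STZ+AOS mice as given both, and only the labels describe these last 2 groups. The study's methods describe male mice, and the labels give the strain as ICR and no genetic change.

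The leptin receptor is a cytokine receptor that binds the kinase JAK2. Once leptin engages the receptor, JAK2 activity leads to phosphorylation of STAT3, which enters the nucleus and switches on target genes. Socs3 is one such target, and its protein binds the receptor and JAK2 and shuts the signal off. Leprot and Leprotl1 encode small endosomal membrane proteins that lower the number of leptin receptors on the cell surface, and the liver makes largely short and soluble receptor forms, which one value per gene cannot tell apart.

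The coordinates are those of GRCm38 (mm10), the build that the submitters named. Lepr lies on chromosome 4 at 101717404 to 101815352 on the plus strand, and Leprot lies upstream of it on the same strand at 101647718 to 101659364. Their annotated starts are 69686 bases apart, and 0 annotated protein-coding genes lie in the gap of 58040 bases between them. Leprotl1 is on chromosome 8 at 34135572 to 34147033, Stat3 on chromosome 11 at 100885098 to 100939540 and Socs3 on chromosome 11 at 117966079 to 117970047, each on the minus strand. The transcripts of the 5 genes had 0 stretches of 35 bases in common in any pair, so reads of that length have no exact match in 2 of them. Stat3 overlaps the opposite-strand gene Stat5a by 72 bases at their 3′ ends, and whether the counting used the strand is not given in the sources used here.

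The 250 bases before each annotated start are shown for Lepr, Leprot and Socs3, because Lepr and Leprot share a locus while Socs3 is the textbook STAT3 target. The starts are those of RefSeq and differ from the gene bounds given above, so that the Socs3 window and the second Lepr window lie inside those bounds and the Leprot window reaches into them. The sequences are from RefSeq on GRCm38.p6, 5′ to 3′ along the gene's strand, and capitals mark the STAT core motif TTCNNNGAA or the GC box GGGCGG.
Lepr start 1, chr4:101717157-101717406, plus strand: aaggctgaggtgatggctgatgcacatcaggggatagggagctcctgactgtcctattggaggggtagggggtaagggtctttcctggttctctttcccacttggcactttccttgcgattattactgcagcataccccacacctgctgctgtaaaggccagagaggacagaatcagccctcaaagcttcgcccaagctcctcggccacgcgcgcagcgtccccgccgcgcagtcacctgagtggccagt
Lepr start 2, chr4:101717656-101717905, plus strand: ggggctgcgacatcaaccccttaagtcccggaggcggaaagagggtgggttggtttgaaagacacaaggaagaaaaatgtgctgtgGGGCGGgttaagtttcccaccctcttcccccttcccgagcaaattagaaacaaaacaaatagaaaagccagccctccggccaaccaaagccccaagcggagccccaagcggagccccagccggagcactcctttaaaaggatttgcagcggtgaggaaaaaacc
Leprot start 1, chr4:101647533-101647782, plus strand: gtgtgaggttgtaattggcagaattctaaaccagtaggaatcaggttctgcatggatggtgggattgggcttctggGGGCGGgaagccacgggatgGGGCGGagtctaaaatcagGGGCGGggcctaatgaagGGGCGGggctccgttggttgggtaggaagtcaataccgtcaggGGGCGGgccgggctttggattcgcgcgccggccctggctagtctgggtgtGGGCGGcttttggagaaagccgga
Socs3 start 1, chr11:117969367-117969616, minus strand: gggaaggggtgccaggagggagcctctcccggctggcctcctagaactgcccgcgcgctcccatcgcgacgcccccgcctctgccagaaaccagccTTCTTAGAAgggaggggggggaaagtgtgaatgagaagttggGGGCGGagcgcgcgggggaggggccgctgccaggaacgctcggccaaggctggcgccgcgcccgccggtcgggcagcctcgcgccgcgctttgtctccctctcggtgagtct
Both strands were searched. The window of Socs3 held 1 STAT core match, 154 bases before the start, and those of Lepr and Leprot held 0. Leprot held 6 GC boxes, against 0 and 1 in the 2 windows of Lepr and 1 in that of Socs3. Of 32851 mouse promoter windows of this length, 7.02% held the STAT core, 32.7% at least 1 GC box and 0.886% at least 6. The FOXO core GTAAACA (3.17% of windows) and the cyclic AMP element TGACGTCA (1.55%) had 0 matches in the windows of Lepr, Leprot, Stat3 and Socs3. A match is a run of letters and not a measured site, and these windows say nothing of sites elsewhere.

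Lepr was close to undetected in livers of mice that had no STZ. Its level was 0.14, 0.14 and 0.17 RPKM in Con and 0.37, 0.13 and 0.19 RPKM in AOS. With coding transcripts of 3410 to 5542 bases, the Con mean of 0.15 RPKM came to roughly 5.22 to 8.49 reads per library, from a value of 1 read estimated from the steps of low genes. It was 46.27, 42.1 and 21.72 RPKM in STZ and 58.63, 45.4 and 122.31 RPKM in STZ+AOS. Every STZ and STZ+AOS mouse was thus above every mouse of the 4 other groups, as held for 3.52% of the 10822 genes tested, and mouse 3 was the lowest of STZ and the highest of STZ+AOS.

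The transplanted mice fell between these extremes. Lepr was 2.99, 2.44 and 4.45 RPKM in A10-FMT and 9.29, 1.14 and 5.15 RPKM in Con-FMT. All 6 mice were above the Con and AOS mice (18.1% of genes tested) and below the STZ and STZ+AOS mice, while the 2 transplanted groups overlapped each other. In group means the order was Con (0.15 ± 0.0173 RPKM, SD, n = 3), AOS (0.23 ± 0.125), A10-FMT (3.29 ± 1.04), Con-FMT (5.19 ± 4.08), STZ (36.7 ± 13.1) and STZ+AOS (75.4 ± 41.1). Neighbours in that order overlapped within each pair, Con with AOS, A10-FMT with Con-FMT and STZ with STZ+AOS, and did not overlap between the pairs. The STZ mean was 245 times the Con mean, 11.1 times the A10-FMT mean and 7.07 times the Con-FMT mean, and the A10-FMT and Con-FMT means were still 22.0 and 34.6 times the Con mean.

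Leprot, the neighbour of Lepr, moved over a far smaller range. It stood at 6.19, 5.31 and 5.53 RPKM in Con, 6.22, 6.39 and 7.16 in AOS and 11.8, 11.27 and 6.49 in STZ. It stood at 11.56, 10.51 and 14.44 RPKM in STZ+AOS, 7.23, 6.65 and 7.5 in A10-FMT and 10.13, 5.6 and 8.7 in Con-FMT. The lowest STZ mouse, mouse 3, was only just above the highest Con mouse, lay within the Con-FMT range and was below all 3 A10-FMT mice. All 3 AOS mice were above all 3 Con mice, as held for 19.1% of the genes tested. The STZ mean was 1.74 times the Con mean. The order of means was Con, AOS, A10-FMT, Con-FMT, STZ and STZ+AOS, the order seen for Lepr, and every pair of neighbours other than Con and AOS overlapped.

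Leprotl1, the relative of Leprot on another chromosome, stayed within 4.1 to 5.98 RPKM in all 18 livers. Its group means ran from 4.82 RPKM in A10-FMT to 5.32 RPKM in Con, and all neighbours in the order of means overlapped. The 3 A10-FMT mice (4.85, 4.96 and 4.65 RPKM) were below the 3 Con-FMT mice (5.3, 5.12 and 5.42 RPKM), a separation in that direction that 5.91% of genes tested showed.

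Stat3, the transcription factor of the pathway, was the most highly expressed of the 5 by RPKM outside the STZ and STZ+AOS groups. It was 27.59, 19.6 and 23.65 RPKM in Con, 27.18, 22.78 and 23.95 in AOS and 36.87, 42.45 and 30.72 in STZ. It was 53.2, 39.38 and 49.43 RPKM in STZ+AOS, 28.81, 22.14 and 25.92 in A10-FMT and 27.39, 33.18 and 28.32 in Con-FMT. The STZ mice were above the Con mice and above the A10-FMT mice without overlap (40.6% and 13.9% of genes tested), whereas Con-FMT mouse 2 lay within the STZ range. The STZ mean was 1.55 times the Con mean and 1.43 times the A10-FMT mean.

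Socs3, the feedback inhibitor, was 3, 1.94 and 2.47 RPKM in Con, 2.64, 1.96 and 1.72 in AOS and 8.53, 8.8 and 3.02 in STZ. It was 9.77, 6.52 and 23.62 RPKM in STZ+AOS, 6.49, 3.56 and 3.17 in A10-FMT and 4.99, 4.41 and 3.75 in Con-FMT. STZ mouse 3 lay at the level of the highest Con mouse, and STZ+AOS mouse 3 was far above every other liver. Unlike Lepr, Socs3 in the transplanted mice overlapped with STZ, yet all 6 of these mice were above all 6 Con and AOS mice, as for 18.1% of genes tested. The STZ mean was 2.75 times the Con mean, and the means of A10-FMT and Con-FMT were 1.78 and 1.77 times the Con mean.

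**Figure D1:**
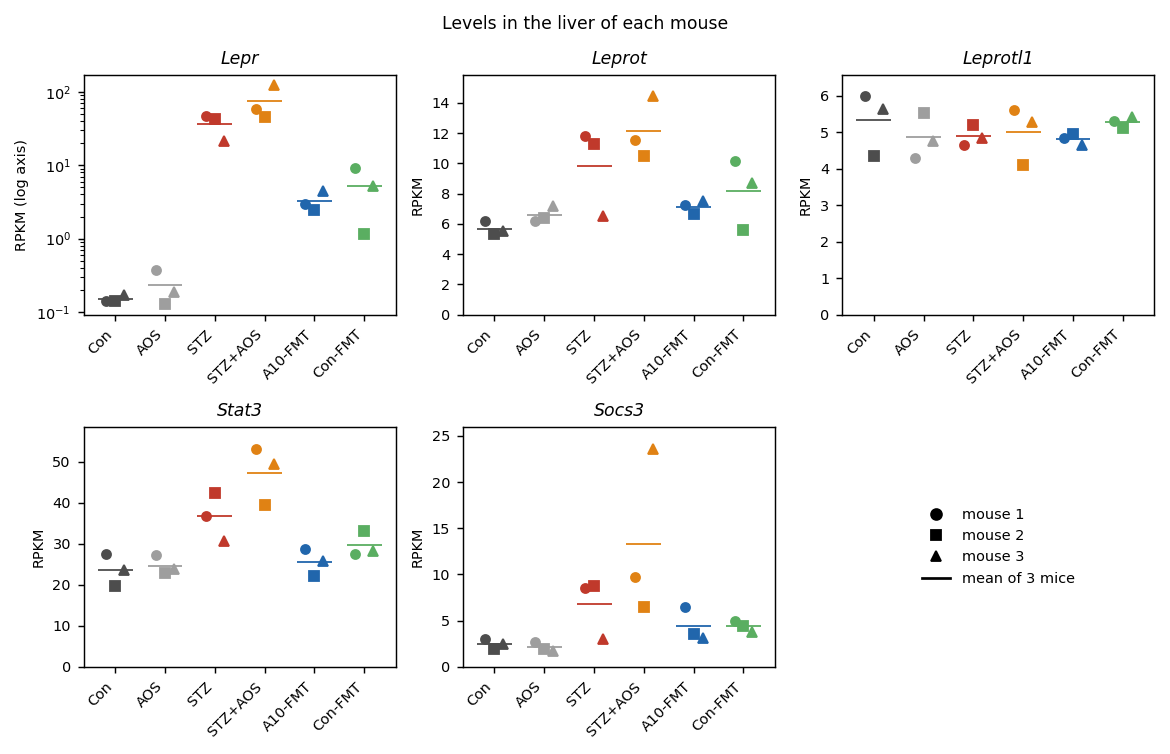
RPKM of the 5 genes (vertical axes, a log axis for Lepr) in each of the 18 livers by group (horizontal axes), with symbols for mouse 1, 2 and 3 and a line at the mean of 3 mice. Lepr separates into 3 levels, 0.13 to 0.37 RPKM without STZ, 1.14 to 9.29 RPKM after transplant and 21.72 RPKM or more in STZ and STZ+AOS, while Leprotl1 stays between 4.1 and 5.98 RPKM.

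On a background of AOS, Lepr, Socs3, Stat3 and Leprot were likewise higher with STZ. In STZ+AOS against AOS the difference of Lepr in a limma model of log2(RPKM + 1) was 5.83 (SE 0.45), and its mean in STZ+AOS was 328 times that in AOS. Because 1 is added to each value, the log2 difference understates the change of a gene as low as Lepr was in AOS. The difference was 2.03 (SE 0.38) for Socs3, 0.91 (SE 0.15) for Stat3, 0.79 (SE 0.20) for Leprot and 0.03 (SE 0.12) for Leprotl1. For the first 4 genes every STZ+AOS mouse was above every AOS mouse, as was so for 40.5% of the genes tested.

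A large part of the genome moved the same way in this contrast. By limma with Benjamini-Hochberg adjustment 37.9% of all genes tested passed an adjusted p of 0.05, 31.8% as higher and 6.11% as lower, so a higher level as such says little about these genes. In size, 99.9% of genes had a lower difference than Lepr, 99.1% than Socs3, 94.7% than Stat3 and 92.7% than Leprot. These ranks are descriptions, since Lepr was selected on its level and passed the filter only through mice that had STZ. The median difference of all genes was 0.21, and dividing the libraries by their median ratio brought it to 0.01. The 4 differences were then 5.68 for Lepr, 1.83 for Socs3, 0.67 for Stat3 and 0.56 for Leprot, and that of Leprotl1 was -0.18.

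STZ+AOS mouse 3, which had the highest Lepr, Leprot and Socs3 of all 18 livers, also held transcripts of the exocrine pancreas. The 4 digestive enzyme genes Pnlip, Cpa1, Cel and Ctrb1 summed to 49.4 RPKM there and to between 0 and 1 RPKM in the 17 other libraries. Without that mouse the differences against AOS were 5.42 for Lepr, 1.55 for Socs3, 0.87 for Stat3 and 0.67 for Leprot.

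In mice without AOS, STZ against Con gave 4.96 (SE 0.45) for Lepr, 1.07 (SE 0.38) for Socs3, 0.66 (SE 0.20) for Leprot, 0.62 (SE 0.15) for Stat3 and -0.09 (SE 0.12) for Leprotl1 on the log2(RPKM + 1) scale. For the first 4, all STZ mice were above all Con mice, as was so for 40.6% of the genes tested. Without STZ mouse 3, the lowest of its group for these genes and the STZ library farthest from its group, the difference of Leprot was 0.91 and that of Socs3 1.49. The effect of STZ with AOS and that without AOS, compared in an interaction term, differed significantly for 0 of 10822 genes by limma with adjustment, with 584 at an unadjusted p under 0.05.

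After transplant the means of the 4 genes were lower than in STZ and that of Lepr by far the most. A10-FMT against STZ gave -3.09 for Lepr, -0.50 for Stat3, -0.47 for Socs3, -0.38 for Leprot and -0.02 for Leprotl1. Con-FMT against STZ gave -2.81 for Lepr, -0.43 for Socs3, -0.29 for Stat3, -0.24 for Leprot and 0.09 for Leprotl1. Single mice weighed on the smaller values. Without STZ mouse 3 the A10-FMT differences were -0.63 for Leprot and -0.89 for Socs3, and without STZ mouse 1 they were -0.24 and -0.27, while Socs3 was -0.73 without A10-FMT mouse 1. In Con-FMT Leprot was -0.02 without Con-FMT mouse 2, -0.10 without STZ mouse 1 and -0.49 without STZ mouse 3, Socs3 was -0.21 without STZ mouse 2 and -0.85 without STZ mouse 3, and Stat3 was -0.18 without STZ mouse 2. Without overlap, Lepr and Stat3 were lower in A10-FMT (13.9% of genes tested) and Lepr alone in Con-FMT (9.35%). Only 0.0370% of genes had a lower difference than Lepr in the first of these contrasts and 0.0739% in the second. Lepr was selected for its strong differences between Con, STZ and the transplanted groups, so these ranks follow from that choice. Both contrasts use the same STZ mice, so their likeness is not independent.

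The 2 kinds of donor gave levels that overlapped for all of these genes but Leprotl1. A10-FMT against Con-FMT gave -0.29 for Lepr, -0.21 for Stat3, -0.14 for Leprot, -0.11 for Leprotl1 and -0.04 for Socs3, and 3.55% of genes had a lower difference than Lepr and 7.46% than Stat3. That of Lepr rests on single Con-FMT mice: it was -0.92 without mouse 2, the lowest of the transplanted mice, and 0.22 without mouse 1, the highest. Leprot was likewise -0.36 and 0.02 without these mice. In STZ mice given AOS directly the means were not lower than in STZ. STZ+AOS against STZ gave 0.96 for Lepr, 0.80 for Socs3, 0.36 for Stat3, 0.31 for Leprot and 0.02 for Leprotl1, with overlap for all 5. Without STZ+AOS mouse 3 the values were 0.55 for Lepr, 0.32 for Socs3 and 0.19 for Leprot, and without STZ mouse 3 they were 0.63, 0.38 and 0.06. In mice with no STZ, AOS against Con gave between -0.16 (Socs3) and 0.19 (Leprot).

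**Figure D2:**
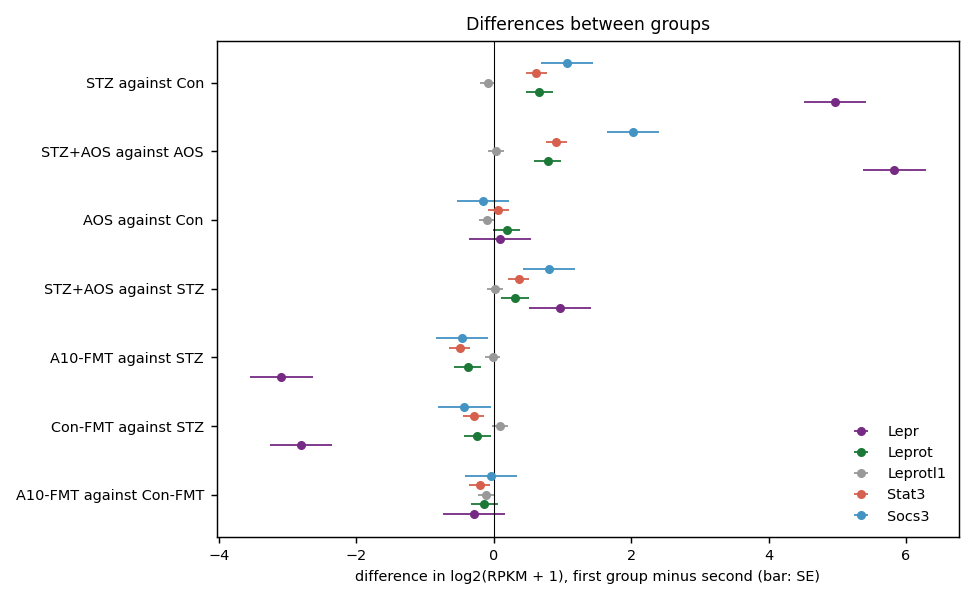
Difference in mean log2(RPKM + 1) of the 5 genes (horizontal axis, first group minus second, bars are SE from the model) for 7 comparisons of groups (vertical axis). Lepr lies at 4.96 and 5.83 for the 2 STZ contrasts and at -3.09 and -2.81 for the 2 transplants against STZ, and Leprotl1 lies within 0.11 of 0 in all 7.

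Lepr and Leprot kept step from mouse to mouse in the transplanted livers. Over the 6 transplanted mice their levels had the same rank order (Spearman's rho 1, Pearson's r 0.986, and 0.917 without the 2 mice farthest in Lepr). Over the 6 STZ and STZ+AOS mice r was 0.914 and rho 0.886, but r was 0.337 without the 2 farthest mice, so that relation rests on the mouse 3 of each group. Over the 6 Con and AOS mice, where Lepr was near its detection limit, r was 0.187 and rho 0.203. Lepr and Socs3 went together in STZ and STZ+AOS (r 0.980, rho 0.829, and r 0.511 without the 2 farthest) and not in the transplanted mice (r 0.00863, rho 0.0857). These are descriptions over 6 mice of 2 groups each, in which values of a mouse share a library.

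**Figure D3:**
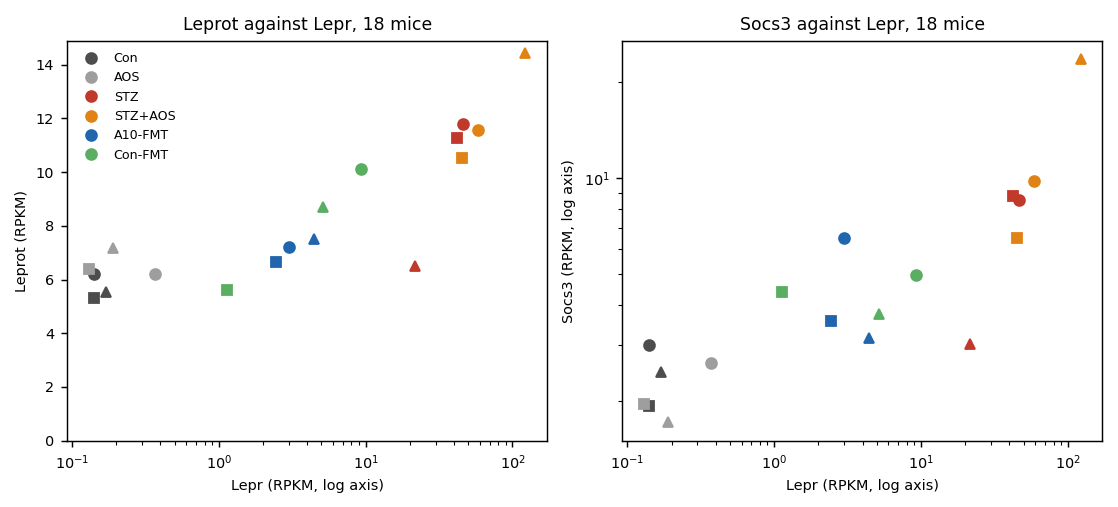
Leprot (left, linear axis) and Socs3 (right, log axis) against Lepr (log axis) in RPKM in 18 livers, coloured by group with circle, square and triangle for mouse 1, 2 and 3. In the 6 transplanted mice Leprot climbs with Lepr from 5.6 to 10.13 RPKM, and STZ+AOS mouse 3 stands at the top right of both plots.

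The other genes near Lepr did not share its size of change. Jak1, a kinase of cytokine receptors, and Ak4, a mitochondrial adenylate kinase, lie upstream of Leprot and were the only tested ones among the 4 annotated protein-coding genes on each side of the pair. Jak1 rose by 0.35 (SE 0.07, adjusted p = 0.00231) in STZ against Con and by 0.39 (SE 0.07, adjusted p = 0.00127) in STZ+AOS against AOS, but neither call held after median-ratio scaling or quantile normalization. Ak4 rose by 1.31 (adjusted p = 0.00172) and 0.78 (adjusted p = 0.0281), from a mean of 14.3 RPKM in Con to 38.0 in STZ, and lost the second call after either scaling and without AOS mouse 2 or 3 or STZ+AOS mouse 1 or 2. Raver2, Dnajc6, B020004J07Rik and Gm12794 were listed with means of at most 0.177 RPKM in every group.

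Among the genes whose levels followed Lepr most closely over the 18 libraries, by Pearson's r of log2(RPKM + 1), were Pxk (0.976), Pi4ka (0.974), Cbr1 (0.971) and Kif21a (0.970). Pi4ka encodes a phosphatidylinositol 4-kinase and Cbr1 a carbonyl reductase. Cbr1 had means of 38.3 RPKM in Con, 244.5 in STZ, 297.0 in STZ+AOS, 106 in recipients of AOS-donor microbes and 94.8 in Con-FMT, so that, as for Lepr, both transplant means lay between those of Con and STZ, over a far smaller range. Kif21a, a kinesin motor, had means of 5.67 RPKM in Con, 13.4 in STZ, 14.4 in STZ+AOS and 8.53 in Con-FMT. These genes were picked for their likeness to Lepr, so their differences between the groups are not tested. Closest to Leprot were S100pbp (0.947), Sgk3 (0.946) and Tox (0.946), and closest to Socs3 were Tubgcp5 (0.966), Trip6 (0.944) and Ppp2cb (0.941).

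The surroundings of the 5 genes in the pathway were described with 7 lists, 81 genes in all, of which 80 were listed in the table and 67 passed the filter of at least 1 RPKM in at least 3 libraries. In STZ against Con 24 of the 67 were called higher and 9 lower, beside 30.8% and 5.25% of all genes tested, 36.1% together. In STZ+AOS against AOS 29 were higher and 6 lower, beside 31.8% and 6.11% of all genes tested. These shares of all genes also stand beside the counts of each list below. These 2 contrasts share no mouse, and 23 genes were called in both with the same sign, 69.7% of the first calls and 65.7% of the second, with 0 of opposite sign. The share of all genes called in both was not counted, and 85.5% and 83.9% of all calls were higher. This overlap therefore cannot be read as particular to the lists. The shift of all genes weighs on the counts of list genes called: after median-ratio scaling they were 8 higher and 12 lower, and 10 higher and 8 lower. Without STZ mouse 3 the first contrast had 24 higher and 8 lower, and without STZ+AOS mouse 3 the second had 23 and 4. Without Con mouse 1 the first had 13 and 4 and without STZ mouse 2 it had 14 and 6, and its lower calls were likewise 4 without Con mouse 3 or STZ mouse 1. Without AOS mouse 2 the second had 21 and 1, and its lower calls were 3 without AOS mouse 1 or 3.

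Lep, which encodes leptin and is the hormone gene of fat cells, was listed at 0 in all 18 livers. Of 15 tested genes that act between the receptor and the cell, 8 were higher and 1 lower in STZ against Con (median 0.38, all genes 0.21), and 10 and 1 in STZ+AOS against AOS (median 0.38, all genes 0.21). After median-ratio scaling 2 and 1, and 3 and 1, were left. Irs2, an adaptor of insulin and leptin signalling, was 1.81, 2.37 and 2.44 RPKM in Con and 7.71, 11.22 and 6.62 in STZ, 1.69, 4.31 and 3.24 in AOS and 7.31, 9.23 and 35.51 in STZ+AOS. It rose by 1.55 (SE 0.41, adjusted p = 0.00942) and 1.89 (SE 0.41, adjusted p = 0.00294), and kept its call in all 13 alternatives of each contrast. Pik3ca, the catalytic subunit of PI3 kinase, rose by 0.51 and 0.54 (adjusted p = 0.000307 and 0.000293), likewise in all alternatives. Ptpn11, the phosphatase SHP2 that docks on the receptor, rose by 0.50 and 0.59, and Sh2b1, a JAK2-binding adaptor, by 0.51 and 0.44, but in STZ against Con both lost the call after either scaling, and Sh2b1 lost the second call too after either scaling and with only the compared groups (adjusted p up to 0.161). Without Con mouse 1 the counts of the list in the first contrast were 5 and 0, and without STZ+AOS mouse 3 those in the second were 7 and 0.

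Among the other STATs, Stat5a and Stat2 fell while Stat3 was higher. Stat5a was 4.37, 5.22 and 5.13 RPKM in Con and 2.04, 2.45 and 3.61 in STZ, and the difference was -0.69 (adjusted p = 0.00406), against -0.56 (adjusted p = 0.0134) in STZ+AOS against AOS. Stat2, which carries the interferon signal, differed by -0.64 (adjusted p = 0.00514) and -0.54 (adjusted p = 0.0117). Both genes lost the second call without AOS mouse 2 (adjusted p up to 0.0587) and kept the first in all alternatives. In all, 1 of 5 tested STATs, Stat5b, was higher and 2 were lower in the first contrast and 0 and 2 in the second, and the call of Stat5b (0.29, adjusted p = 0.0428) was lost after either scaling, with no filter, with only the compared groups and in 5 of the 6 fits that left out 1 mouse, the exception being STZ mouse 1. After either scaling Stat5b was called lower in the second contrast, where it was -0.17 (adjusted p = 0.2) without scaling. Stat5b, the growth hormone STAT, was the single list gene called in a transplant contrast: it was 14.61, 19.47 and 16.25 RPKM in STZ and 10.45, 10.39 and 8.91 in A10-FMT, a difference of -0.70 (SE 0.11, adjusted p = 0.0208, beside 0.49% of all genes called and 0.323% called lower). This call was lost without any single A10-FMT mouse, without STZ mouse 2 and with only the 2 groups in the model (adjusted p up to 0.231). Stat5b in A10-FMT was also below Con (13.37, 13.97 and 13.04 RPKM) without overlap, a difference that was not tested. The same held for Con-FMT (12.5, 12.1 and 10.45 RPKM), which was below every STZ mouse as well (9.35% of genes tested). The share of all genes that lay below Con in this way was not counted. Without STZ mouse 3, 10 of 67 list genes were called in A10-FMT against STZ, 3 higher and 7 lower. In Con-FMT against STZ 9 were called, 2 higher and 7 lower, whereas with all mice this contrast had 0 list genes called beside 0.166% of all genes. The counts of all genes rose as well, to 999 and 1322 without STZ mouse 3, from 53 and 18 of 10822 with all mice. The rise in list genes called therefore cannot be read as particular to the lists.

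Among the relatives of Socs3 and the PIAS inhibitors, 4 of 10 tested genes were higher and 0 lower in STZ against Con (median 0.34), and 5 and 0 in STZ+AOS against AOS (median 0.38). Socs2, the feedback gene of growth hormone signalling, was 12.86, 15.64 and 14.01 RPKM in Con and 47.81, 56.9 and 25.04 in STZ, and rose by 1.47 (SE 0.42, adjusted p = 0.0148), a call lost without Con mouse 1 or STZ mouse 1 or 2 (adjusted p up to 0.0722). In STZ+AOS against AOS its difference was 0.79 (adjusted p = 0.153). Pias1 rose by 0.48 and 0.40, Pias2 by 0.37 and 0.42 and Socs4, at the threshold in the first, by 0.47 and 0.66, and Pias4 rose by 0.46 in the second contrast. The calls of these 4 genes were lost under median-ratio scaling. The counts of this list rest on single mice, with 0 higher in the first contrast without STZ mouse 2, 1 without Con mouse 1 and 2 without STZ mouse 1, and in the second 2 without AOS mouse 2 or STZ+AOS mouse 3 and 3 without AOS mouse 3. Socs1 was below the filter, with group means of 0.287 to 0.47 RPKM.

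Of the receptors that share the STAT3 route with leptin, Il6ra stood out. The interleukin-6 receptor gene was 5.21, 4.94 and 5.04 RPKM in Con, 21.56, 26.15 and 12.53 in STZ, 8.02, 5.35 and 6.92 in AOS and 14.33, 15.52 and 24.3 in STZ+AOS. It rose by 1.74 (SE 0.23, adjusted p = 0.000139) and 1.27 (SE 0.23, adjusted p = 0.00106) and kept both calls in all alternatives. After transplant it was 8.17 to 12.26 RPKM with AOS-donor microbes and 9.05 to 10.91 RPKM with control-donor microbes. Both ranges were below every STZ mouse (13.9% and 9.35% of genes tested), the first only just, with STZ mouse 3 at 12.53 RPKM. Of the 14 fits of each contrast with STZ, Il6ra passed the test in 1, that without STZ mouse 3. Il6st, the shared subunit gp130, rose by 0.40 in STZ+AOS against AOS (adjusted p = 0.0124, lost after either scaling and without AOS mouse 2) and differed by 0.18 in STZ against Con (adjusted p = 0.209). Il10rb rose by 0.57 in STZ against Con (adjusted p = 0.0333), a call lost after either scaling and on leaving out any one mouse other than STZ mouse 3, and differed by 0.35 (adjusted p = 0.168) in STZ+AOS against AOS. In all, 3 of 8 tested receptor and kinase genes were higher and 0 lower in the first contrast, and 3 and 2 in the second, where 2 and 0 were left without AOS mouse 2. After median-ratio scaling the counts were 1 and 1, and 1 and 3.

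The ligands of these receptors were scarce in liver RNA. Il6, Lif, Osm, Il11 and Csf3 had group means of at most 0.0767 RPKM and were not tested, and Il22 had no row under that symbol. Clcf1, a cytokine of the ciliary neurotrophic factor receptor, was 0.53, 0.25 and 0.21 RPKM in Con and 1.87, 1.52 and 0.82 in STZ, 0.3, 0.28 and 0.35 in AOS and 2.97, 2.03 and 2.49 in STZ+AOS. It rose by 0.84 (adjusted p = 0.00219) and 1.41 (adjusted p = 9.94e-05), in all alternatives. Ctf1 rose by 0.54 in STZ against Con (adjusted p = 0.0134, lost after either scaling and without Con mouse 1 or STZ mouse 2), with 0.37 (adjusted p = 0.0633) in STZ+AOS against AOS. The 2 tested ligands were thus both higher in the first contrast and 1 in the second. Clcf1 passed the filter only through mice that had STZ, with every Con and AOS value under 1 RPKM, so the filter favoured a higher call for it.

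**Figure D4:**
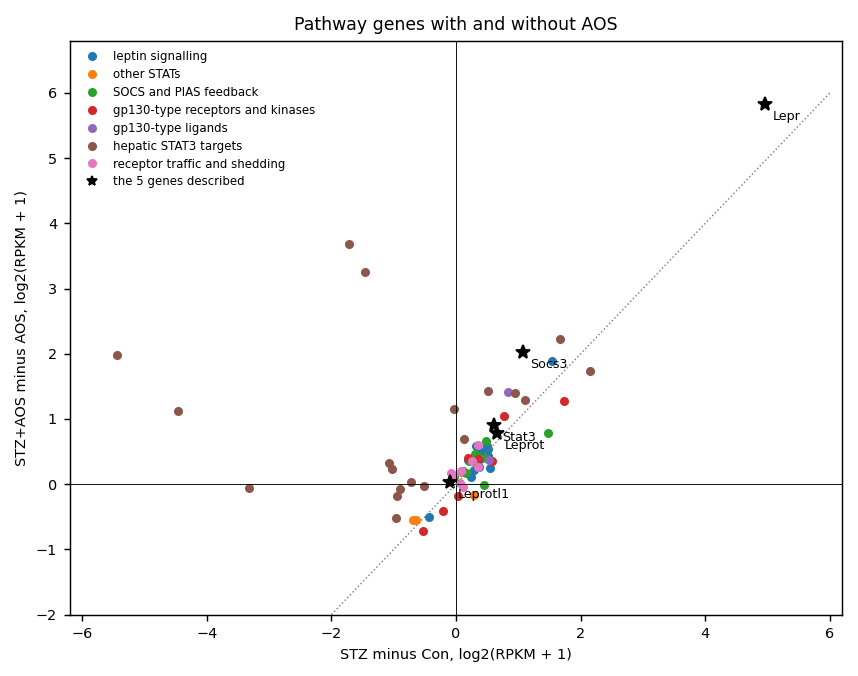
Difference in log2(RPKM + 1) of STZ minus Con (horizontal axis) and STZ+AOS minus AOS (vertical axis) for the 67 tested pathway genes, coloured by list, with stars for the 5 genes of the leptin receptor group and a dotted line at equality. Lepr lies farthest to the upper right at 4.96 and 5.83, and genes at the left are acute-phase members of the STAT3 target list.

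The STAT3 targets of the liver did not move as one group. In STZ against Con 3 of 19 tested targets were higher and 6 lower (median -0.90), and in STZ+AOS against AOS 7 were higher and 1 lower (median 1.13), or 4 and 0 without AOS mouse 2 or 3 or STZ+AOS mouse 1 and 4 and 1 after median-ratio scaling. Junb, Myc and Cebpd, which encode transcription factors, rose in both. Junb was 9.24, 7.7 and 8.12 RPKM in Con and 35.85, 33.87 and 54.52 in STZ, and rose by 2.15 (adjusted p = 0.000242) and by 1.74 (adjusted p = 0.00097) in STZ+AOS against AOS. Myc rose by 1.66 (adjusted p = 0.0144) and 2.22 (adjusted p = 0.00283), with 31.13 RPKM in STZ+AOS mouse 3 against 8.64 and 7.72 in the others of that group, and lost the first call without STZ mouse 1 (adjusted p = 0.0688). Cebpd rose by 1.10 (adjusted p = 0.00681) and 1.29 (adjusted p = 0.00272). Bcl3, a nuclear regulator of NF-kB, fell by 0.96 (adjusted p = 0.0017) and by 0.52 (adjusted p = 0.0419), the second call being lost on leaving out any one mouse other than STZ+AOS mouse 3.

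Saa3, an acute-phase protein gene, fell by 3.33 in STZ against Con (SE 0.77, adjusted p = 0.00447) and differed by -0.06 (adjusted p = 0.957) in STZ+AOS against AOS. It was 344.16, 22.61 and 195.31 RPKM in Con, 6.73, 25.71 and 6.62 in STZ, 12.14, 8.19 and 10.51 in AOS and 18.75, 3.93 and 11.56 in STZ+AOS. Con mouse 2 lay within the STZ range, while Con mice 1 and 3 were far above it. The 6 targets called lower in STZ against Con became 2 without either of those mice or without STZ mouse 1.

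**Figure D5:**
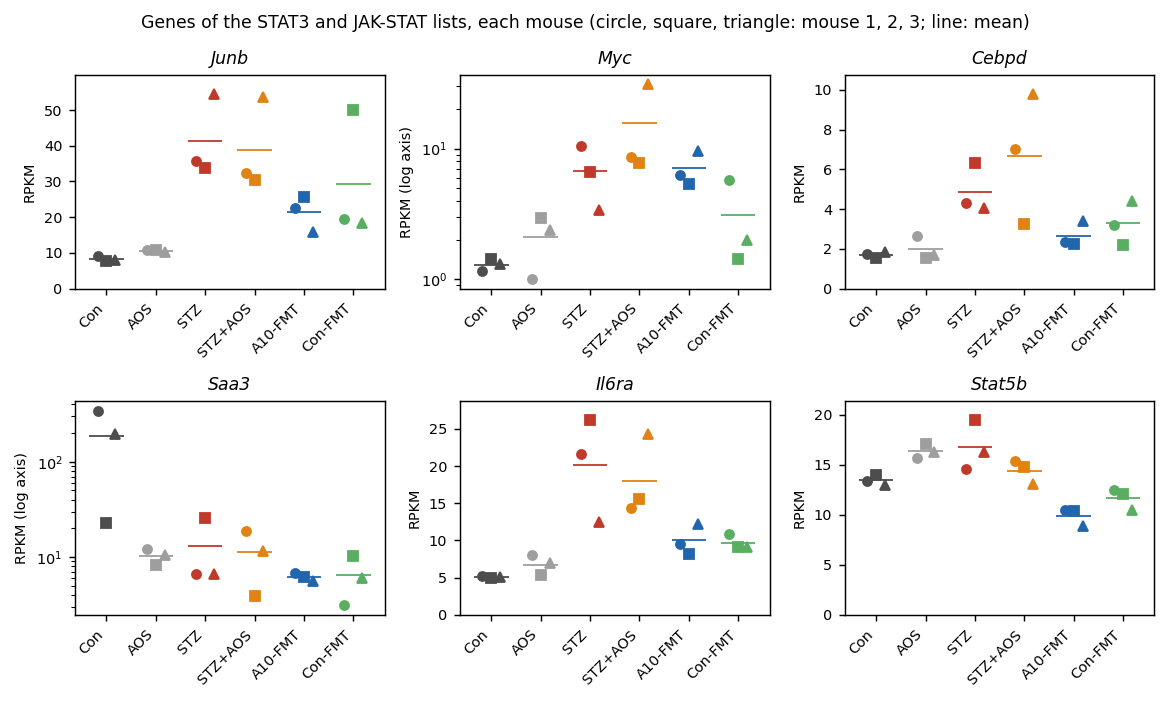
RPKM (vertical axes, log axes for Myc and Saa3) of 6 genes of the STAT3 target, receptor and STAT lists in each liver by group (horizontal axes), with circle, square and triangle for mouse 1, 2 and 3 and a line at the mean. Junb and Il6ra are higher in every STZ and STZ+AOS mouse than in every Con and AOS mouse, Saa3 is high in Con mice 1 and 3, and Stat5b is lowest in the transplanted groups.

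Genes of receptor sorting and shedding changed little. In each of the 2 STZ contrasts 3 of 8 tested genes were higher and 0 lower (medians 0.10 and 0.18, under the 0.21 of all genes). These were Hgs (0.35 and 0.60) and Tsg101 (0.36 and 0.26), which sort receptors to the lysosome, and the deubiquitinase Usp8 (0.26 and 0.35). After median-ratio scaling Usp8 and Tsg101 were called in neither contrast and Hgs in the second alone, and without Con mouse 1 or 3 or STZ mouse 2 the first contrast had 1 call. The sheddase genes Adam10 and Adam17 had means of 4.43 to 6.35 RPKM in all groups.

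The livers had the markers of liver and differed in markers of several cell types. The 6 hepatocyte markers were present in all libraries. In STZ against Con and STZ+AOS against AOS, Ttr (-0.92 and -1.18) and Apoa1 (-0.70 and -0.96) were called lower. Cps1 (1.37 and 1.10) and Hnf4a (0.75 and 0.84) were called higher, and Alb and Asgr1 were called in neither. The erythroid gene Alas2 was called lower in both (-3.19 and -3.53). The endothelial Pecam1 and the cholangiocyte Sox9 were called in the first alone, and the endothelial Lyve1 and the neutrophil S100a9 in the second alone. The summed 5 stellate cell markers, mostly Dcn, ran from 67.4 to 78.3 RPKM in Con, 77.4 to 86.2 in AOS, 106 to 125 in STZ and 129 to 149.5 in STZ+AOS. After transplant they ran from 95.0 to 106 RPKM with AOS-donor microbes and from 67.9 to 137 with control-donor microbes. They were lowest in Con-FMT mouse 2, which had the lowest Lepr of these mice. Con-FMT mouse 3 went the other way, with Dcn at 129.18 RPKM and Lepr at 5.15 RPKM. Its Dcn was above that of every STZ mouse (99.64 to 116.64 RPKM). Of the 5 stellate cell markers Dcn alone was called in the STZ contrasts (0.72 and 0.77), and Lrat, Des, Reln and Col1a1 were called in neither. The 5 Kupffer cell markers summed to 51.3 to 80.0 RPKM in Con and 80.9 to 182 in STZ, with Marco at means of 2.70 and 32.7. Marco alone of these was called in the STZ contrasts. The 4 adipocyte markers summed to at most 0.32 RPKM in any library, with Lep and Plin1 at 0 in Con and STZ. The part of these cells in the levels of Lepr, Leprot, Socs3 and Stat3 was not tested, and in RNA of whole liver fewer cells of a type and less RNA per cell cannot be told apart. The libraries had a relative depth of 0.940 to 1.07, RPKM sums of 621120 to 806940 and 9955 to 10409 genes of at least 1 RPKM.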

How the data were processed

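Liver poly(A) RNA of 18 mice was sequenced, and the authors deposited 1 table of RPKM values per gene. Per the study's methods reads were aligned to reference genes with SOAPaligner, whereas the submitters' processing notes name Bowtie 0.12.2 and mm10. Which of them made the table is not given in the sources used here. RPKM values hold no counts, and library totals were not given, so relative depth was estimated from the steps of low values in 68 genes, and the value of 1 read from 29 of these with a single transcript. Such read numbers are estimates, and intervals from counting were not given. Groups were taken from the treatment labels. The members, the genes most like them and the pathway lists were chosen with earlier results of these data known.

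Values were tested as log2(RPKM + 1), with a filter of at least 1 RPKM in at least 3 of 18 libraries, which left 10822 of 19057 rows. Lepr passed it only through mice that had STZ, with 0 of 6 Con and AOS libraries at 1 RPKM or more. A model of the 6 group means was fitted with limma 3.58.1 (R 4.3.3, lmFit, contrasts.fit, eBayes with trend, both directions). A test of the members in STZ+AOS against AOS was planned but its p is not given, since these mice may have entered their choice. Calls were made at an adjusted p under 0.05 (Benjamini-Hochberg, per contrast). The script was tested on simulated data. Named were the 5 members, at most 3 called genes with the smallest adjusted p per list and STZ contrast, list genes called in a transplant contrast, listed neighbours of the locus, and the genes closest to Lepr (5), Leprot (3) and Socs3 (3). One gene that this rule names is not reported here. Other genes are named for counts of 5 or fewer, or as markers, and were chosen after their values were seen. Gene positions are from GENCODE M21. The labels do not give litters or cages. The p-values set a difference against the spread between mice within the groups. Variation between donors is not in them, since the donor material was pooled. Same-numbered libraries deviated together (every r over 0.1: 0.121, 0.291 and 0.179) in A10-FMT with Con-FMT and in no other pair of groups compared. Alternatives were a pseudocount of 0.1, no filter, median-ratio scaling, quantile normalization, no trend, only the compared groups, a replicate block and leaving out each mouse. List counts under these settings were added after the data were seen.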

Additional observations from a re-analysis of the deposited data

How the results depend on the processing

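Over 13 alternatives the differences in STZ+AOS against AOS were 5.42 to 7.77 for Lepr, 0.54 to 0.88 for Leprot, 0.67 to 1.03 for Stat3, 1.55 to 2.41 for Socs3 and -0.20 to 0.14 for Leprotl1. Leaving out 1 mouse gave ranges of 5.42 to 6.13 for Lepr, 0.67 to 0.88 for Leprot, 0.82 to 1.03 for Stat3, 1.54 to 2.40 for Socs3 and -0.04 to 0.14 for Leprotl1.

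The number of genes called in STZ+AOS against AOS, 4102, was 2654 after median-ratio scaling, 2729 after quantile normalization and 2492 with only the compared groups in the model. In A10-FMT against STZ it was 53, and 12 with no filter and 1 with only the compared groups. In Con-FMT against STZ it was 18, and 4 with no filter, 28 after median-ratio scaling and 0 with only the compared groups. In STZ+AOS against STZ it was 0 (657 genes at an unadjusted p under 0.05) and 6 with no filter, and in A10-FMT against Con-FMT 0 (245 at an unadjusted p under 0.05) and 1 with no filter. In AOS against Con it was 1, and 0 with a pseudocount of 0.1, 4 with no filter, 2 after median-ratio scaling, 2 after quantile normalization and 43 with only the compared groups. The share of calls that were higher was 85.5% in STZ against Con and 83.9% in STZ+AOS against AOS, and 50.0% and 49.9% after median-ratio scaling. Usp8 in STZ against Con was -0.022 after quantile normalization (adjusted p = 0.869), the 1 called difference of a named pathway gene whose sign turned. The causes were not tested.

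Leaving out 1 mouse, the counts ran from 2768 to 4045 in STZ+AOS against AOS, 2411 to 4659 in STZ against Con, 0 to 999 for A10-FMT against STZ, 0 to 1322 in Con-FMT against STZ, 0 to 2 in STZ+AOS against STZ, 0 to 6 in AOS against Con and 0 to 1 in A10-FMT against Con-FMT. STZ mouse 3 decided the 2 highest transplant counts, 999 and 1322 being those without it. The lowest count of STZ against Con was that without STZ mouse 2, and without Con mouse 1 it was 2546.

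Of 45 correlations between same-numbered libraries 15 were over 0.1 (median 0.032). All 3 were so for A10-FMT with Con-FMT, where the block left the count at 0 (259 genes at an unadjusted p under 0.05), and in the other comparisons the mice share only a number. With the replicate block the counts were 4029 in STZ+AOS against AOS, 3808 in STZ against Con, 43 for A10-FMT against STZ, 17 in Con-FMT against STZ and 0 in AOS against Con. The block changed no call of the named pathway genes in the STZ contrasts. With 3 mice a group, and Lepr at a few reads per library in Con and AOS, the size of its change there is known only roughly.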

Other observations

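The highest Saa1 and the highest Socs3 of all livers were in different mice. Saa1, an acute-phase protein gene chosen after its values were seen, was 6422, 296 and 3570 RPKM in Con and 278, 61.1 and 131 RPKM in AOS. It was 28.0, 454 and 46.4 RPKM in STZ and 3430, 200 and 33.6 RPKM in STZ+AOS. STZ+AOS mouse 3, with the highest Socs3 and Lepr of all livers, had the lowest Saa1 of its group, and Con mouse 1, with the highest Saa1, had Socs3 at 3 RPKM and Lepr at 0.14 RPKM. Within Con, AOS, STZ and A10-FMT, however, the mouse with the highest Saa1 also had the highest Socs3 of its group. These were Con mouse 1, AOS mouse 1 (Socs3 at 2.64 RPKM), STZ mouse 2 (8.8 RPKM) and A10-FMT mouse 1 (6.49 RPKM). In Con-FMT the highest Saa1 was in mouse 2 (259 RPKM) and the highest Socs3 in mouse 1 (4.99 RPKM). STZ+AOS mouse 1, with the highest Saa1 of its group, had Socs3 at 9.77 RPKM. Of other acute-phase genes of the list, Orm2 rose by 3.68 (adjusted p = 0.029), Hamp by 1.43 (adjusted p = 0.019) and Lbp by 1.14 (adjusted p = 0.036) in STZ+AOS against AOS, calls that were each lost after median-ratio scaling and without AOS mouse 2 or 3 or STZ+AOS mouse 1.

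Il22ra1, a receptor subunit for interleukin-22 that was likewise chosen after its values were seen, was 16.6 RPKM in STZ+AOS mouse 3 and 9.20 RPKM in STZ mouse 2, and between 1.03 and 3.13 RPKM in the 16 other livers. It did not pass the test in either STZ contrast (adjusted p = 0.218 and 0.095).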
